A study of Mus musculus with 6 samples.

Results

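The 38 genes described here mark the cells of brain blood vessels: endothelial cells, which line the vessel and form the blood-brain barrier, and the mural cells around them, pericytes on capillaries and smooth muscle cells on larger vessels. They were chosen by gene symbol among the 54429 genes counted in each library, and all 38 had enough reads to be tested. By role they fall into 6 junction genes, 6 transporter genes, 6 endothelial receptor genes, 10 other endothelial identity genes, 7 pericyte genes and 3 smooth muscle genes. RNA was sequenced from whole prefrontal cortex (PFC) tissue of mice in 3 groups of 2 libraries each. The WT group had the C57BL/6 x C3H background and received vehicle. The Tau group carried the PS19(P301S) transgene, a mutant human tau, and received vehicle, and the UNC0642 group carried the same transgene and received UNC0642, an inhibitor of the histone methyltransferases EHMT1 and EHMT2. The mice were 6 months old by the design text of the series. The study's methods describe littermates of both sexes, injected intraperitoneally once a day on consecutive days and sampled the day after the last injection. No WT mouse given UNC0642 was analysed here, so that the inhibitor can be compared only within transgenic mice.

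In brain, endothelial cells are sealed to each other by tight junctions, have few transport vesicles, and carry transporters that bring in glucose, amino acids and lipids and pump out foreign compounds. Pericytes are recruited by PDGF-B from the endothelium, which binds PDGF receptor beta on their surface, and smooth muscle cells contract the arterioles. Endothelial growth and quiescence are set by the receptors for VEGF and for the angiopoietins. Because whole tissue was sequenced, fewer vascular cells and less RNA per vascular cell cannot be told apart in any value given below.

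Libraries held 17005664 to 28972176 counts, and levels are given as CPM (counts-per-million of the scaled library total), where 3 counts correspond to 0.107 to 0.178 CPM. A gene was called lower or higher when its unadjusted p was under 0.05 and it differed 1.2-fold or more in edgeR's quasi-likelihood test, the thresholds of the study, and the p-value adjusted over all 20409 genes tested is given beside it. Endothelial, pericyte and smooth muscle markers were all detected in every library, although the smooth muscle gene Tagln had only 4 to 14 counts. Some libraries stood apart from their labels or from their group. Prnp, whose promoter drives the transgene in PS19 mice, stood at 1652 CPM in the library labelled WT replicate 1, inside the 1470 to 1694 CPM of the 4 transgenic libraries, and at 873 CPM in WT replicate 2. Mapt, the tau gene, stood at 576 CPM in WT replicate 1, inside the 571 to 614 CPM of the transgenic libraries, and at 449 CPM in WT replicate 2. Whether the label of WT replicate 1 is right was not tested, and every comparison with WT rests on these 2 libraries. Xist had 8107, 5340 and 4104 counts in WT replicate 2 and the 2 Tau libraries and at most 5 counts in the other 3, while the Y-linked gene Ddx3y showed the opposite pattern. Both Tau libraries thus had the female and both UNC0642 libraries the male pattern, so that UNC0642 and sex cannot be told apart, and the WT libraries held 1 of each. Tau replicate 2 had the highest levels of oligodendrocyte and striatum markers.

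P301S Tau mice had less RNA of many vascular genes than WT mice, and more of a few. Of the 38 genes, 10 were called lower (26.3%, against 6.1% of all genes tested) and 3 were called higher (7.89%, against 3.72%). The genes called lower were Cldn5, Slco1a4, Abcb1a, Flt1, Kdr, Tek, Podxl, Pdgfrb, Vtn and Notch3, and those called higher were Slc2a1, Mfsd2a and Abcc9. Cldn5 was the only member whose adjusted p was under 0.05 in edgeR, which 0.157% of all genes reached in this comparison. DESeq2's Wald test gave 2 such members, Cldn5 and Vtn. The shares of all genes are not given for DESeq2, nor for the fit without 1 library below. Both Tau libraries were below both WT libraries in 19 members (background 21.4% of all genes) and above both in 6 (background 21.9%). The median log2 fold change was -0.26 over the 38 members and -0.00011 over all genes tested. Without the library labelled WT replicate 1, 9 members were called lower, 8 of them among the 10, and the same 3 were called higher.

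**Figure D1:**
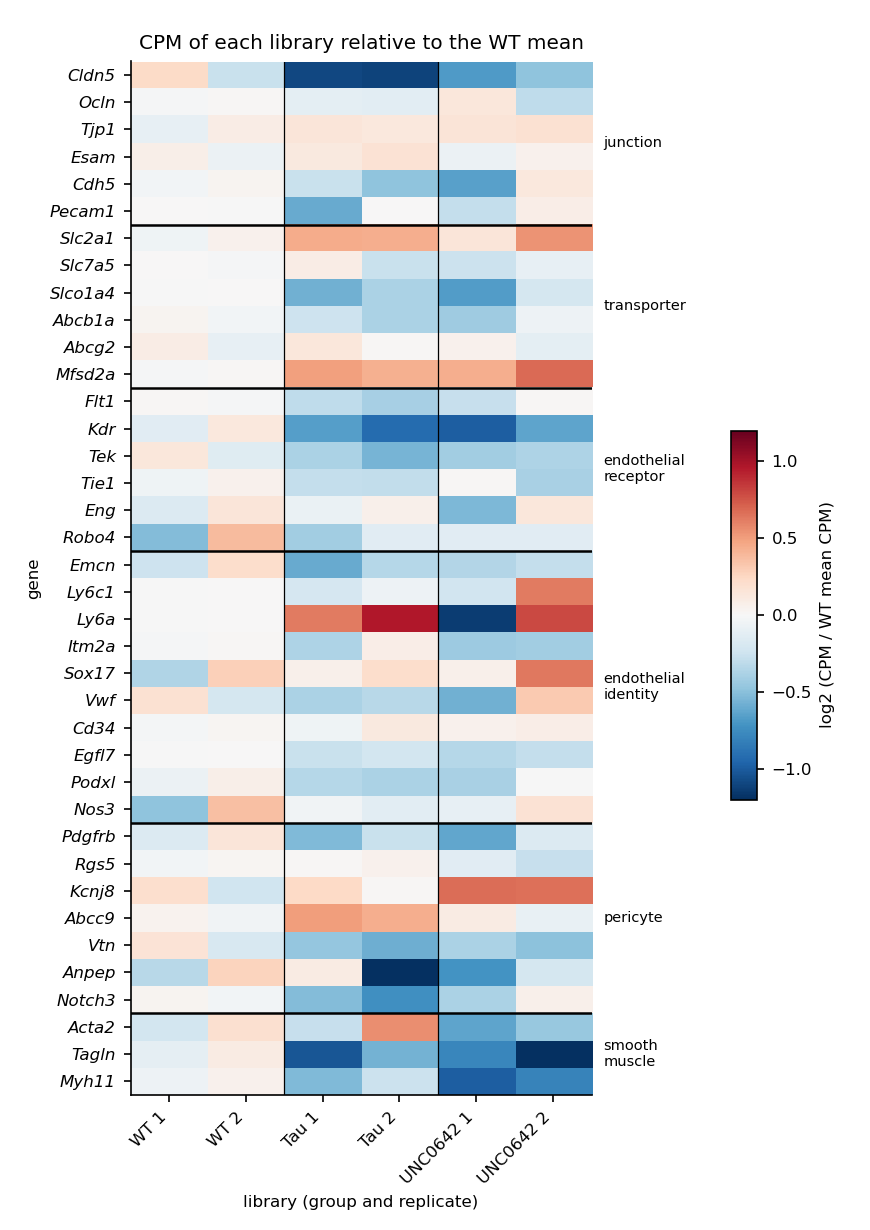
Heat map of the 38 genes (rows, grouped by role) in the 6 libraries (columns), coloured by the log2 ratio of the library's CPM to the mean CPM of the 2 WT libraries, on a scale cut at 1.2 in either direction. Cldn5, Kdr, Slco1a4 and Vtn were below the WT mean in all Tau and UNC0642 libraries, whereas Slc2a1 and Mfsd2a were above it in all 4.

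UNC0642-treated and vehicle-treated Tau mice differed in few of these genes. Cldn5 and Notch3 were called higher after UNC0642 (5.26% of the members, against 3.73% of all genes), and Abcc9, Acta2 and Myh11 were called lower (7.89%, against 3.95%). No member had an adjusted p under 0.05 in edgeR or in DESeq2, and 0.0196% of all genes reached it in edgeR. An unadjusted p under 0.05 was found for 6 members in edgeR, of which Rgs5 missed the fold threshold, and for 3 in DESeq2. The median log2 fold change over the members was 0.06, against -0.0023 over all genes. Cldn5, Notch3 and Abcc9 are also in the lists of reversed genes that the study made from these libraries, so that their return toward the WT level is not independent evidence. Against WT, which shares its libraries with the first comparison, UNC0642-treated Tau mice had 8 members called lower (21.1%, against 5.69% of all genes) and 3 called higher (7.89%, against 3.77%). In this comparison 0.216% of all genes and no member had an adjusted p under 0.05 in edgeR, in which 12 members had an unadjusted p under 0.05. DESeq2 gave 1 member with an adjusted p under 0.05, Kdr, and 9 with an unadjusted one. For the counts at the unadjusted p alone and for those from DESeq2, the shares of all genes are not given. These counts are therefore not set against other genes.

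**Figure D2:**
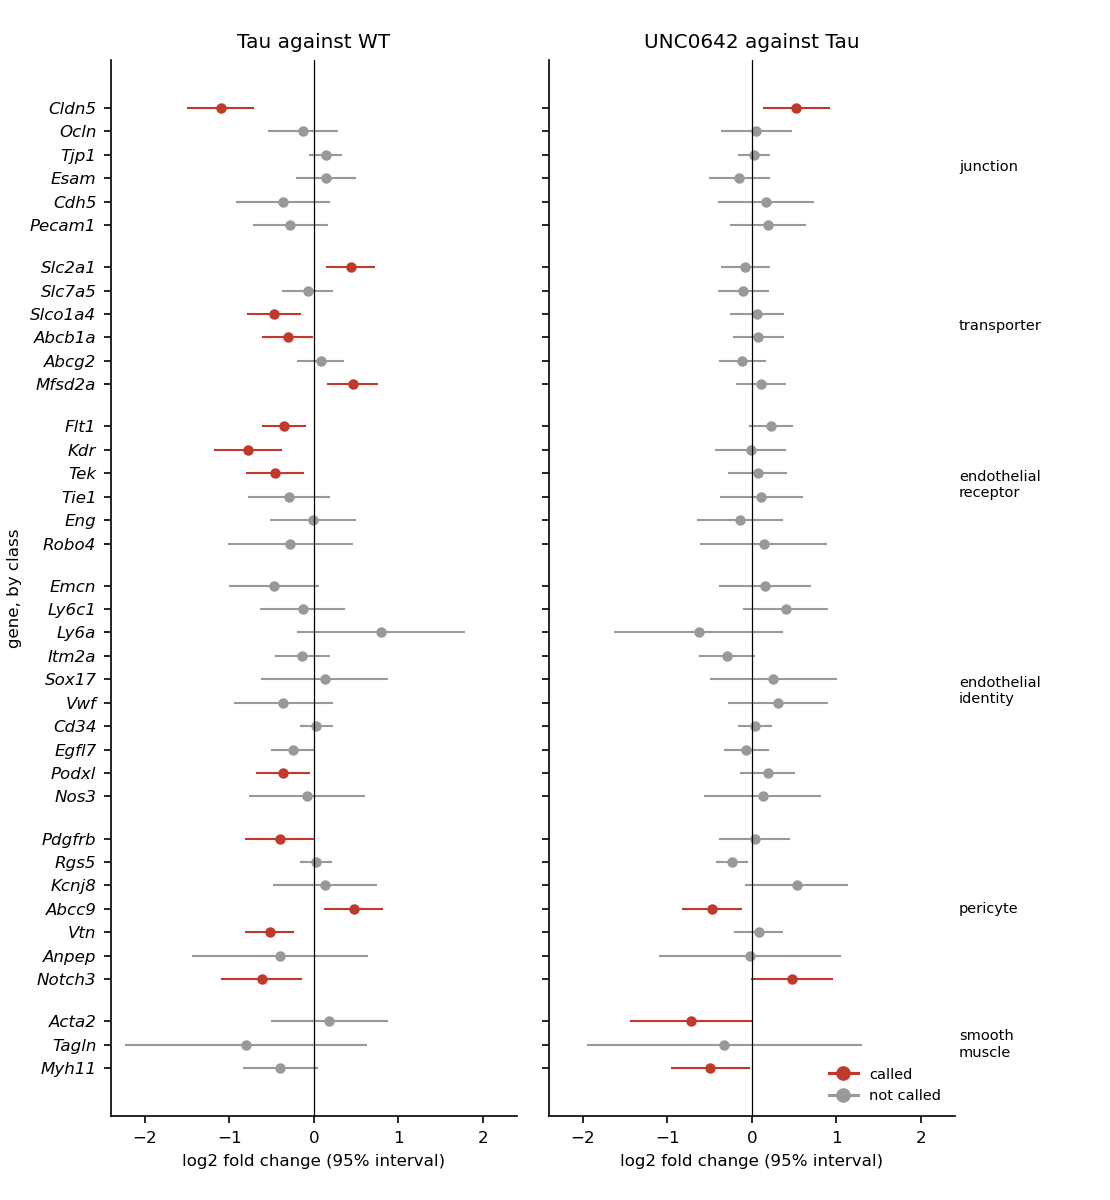
Log2 fold change (point) and its 95% interval (line) for each of the 38 genes, for Tau against WT (left) and UNC0642 against Tau (right), with called genes in red and the others in grey. In the left panel 10 red points lie below 0 and 3 above it, and in the right panel 3 lie below and 2 above.

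Of the junction genes, only Cldn5 was called in any comparison. Cldn5 encodes the main claudin of the blood-brain barrier and lies on chromosome 16 from 18776847 to 18778262 (GRCm38, plus strand), where the annotation holds a single exon stretch of 1416 bases. Its level was 26.1 and 18.5 CPM in the WT libraries, 10.5 and 10.3 CPM in the Tau libraries, and 13.9 and 16.0 CPM in the UNC0642 libraries. The 3 groups did not overlap: WT was highest, Tau was lowest and UNC0642 lay between them. Cldn5 was 2.14-fold lower in Tau than in WT mice (log2 fold change -1.10, standard error 0.17, adjusted p = 0.0467 in edgeR). It was 1.44-fold higher in UNC0642-treated than in vehicle-treated Tau mice (log2 fold change 0.53, standard error 0.18, adjusted p = 0.458), and 1.49-fold lower in UNC0642-treated Tau mice than in WT mice (log2 fold change -0.57, standard error 0.17, adjusted p = 0.235). Without the library labelled WT replicate 1, its log2 fold change in Tau mice was -0.84, with an adjusted p of 0.15. Over all alternatives that adjusted p ranged from 2.7e-09 to 0.211, and Cldn5 stayed called in each. Without that library or without UNC0642 replicate 1 it was no longer called in UNC0642-treated Tau mice against WT, at -0.31 and -0.48, and without UNC0642 replicate 2 it was no longer called in UNC0642-treated against vehicle-treated Tau mice, at 0.42. With a term for sex, the log2 difference between UNC0642 and Tau was 0.03, which was not called, and that between Tau and WT was -0.83. Only the difference between the 2 WT libraries informs this term, so the -0.83 is nearly the same fit as that without WT replicate 1. Any other difference between those libraries, such as that in Prnp, enters the term as well. The 0.03 therefore does not show what part sex had in the Cldn5 values, which was not tested.

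The other 5 junction genes gave no call in any comparison. They were Ocln, which encodes occludin, Tjp1, the scaffold protein ZO-1 that ties junctions to actin, Esam, an endothelial adhesion molecule, Cdh5, the VE-cadherin of endothelial adherens junctions, and Pecam1, which encodes CD31 at endothelial cell contacts. Tjp1 had 129 and 146 CPM in WT, 152 and 151 CPM in Tau and 153 and 156 CPM in UNC0642 libraries. Its log2 fold change in Tau mice was 0.14 with a 95% interval from -0.04 to 0.32, so a fall of the size of Cldn5 lay outside its interval. In whole tissue, Tjp1 RNA of vascular cells cannot be told from that of other cells. Cdh5 had 7.25 and 7.62 CPM in WT and 6.19 and 5.32 CPM in Tau libraries, a log2 fold change of -0.36. Its interval, from -0.91 to 0.18, overlapped that of Cldn5, from -1.48 to -0.72. Log2 fold changes in Tau mice were -0.13 for Ocln, 0.14 for Esam and -0.28 for Pecam1, whose Tau libraries differed from each other, at 11.3 and 17.3 CPM. Over the 6 junction genes the median log2 fold change was -0.20 in Tau against WT and 0.11 in UNC0642 against Tau.

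Transporter genes moved in both directions in Tau mice. Slc2a1 encodes GLUT1, the glucose transporter of the barrier, which astrocytes also make. Its level was 40.4 and 43.4 CPM in WT, 56.9 and 56.6 CPM in Tau and 46.2 and 61.0 CPM in UNC0642 libraries, so that both transgenic groups lay above WT. It was 1.35-fold higher in Tau than in WT mice (log2 fold change 0.44, standard error 0.12, adjusted p = 0.259). Mfsd2a encodes the barrier's importer of docosahexaenoic acid, a lipid transporter that also keeps vesicle transport low. Its level was 13.1 and 13.4 CPM in WT, 18.6 and 17.8 CPM in Tau and 17.9 and 21.3 CPM in UNC0642 libraries. Mfsd2a was 1.38-fold higher in Tau than in WT mice (log2 fold change 0.46, standard error 0.13, adjusted p = 0.257) and 1.48-fold higher in UNC0642-treated Tau mice than in WT mice (log2 fold change 0.57, standard error 0.13, adjusted p = 0.131). Slc2a1 was also called higher in that comparison, with a log2 fold change of 0.36 and an adjusted p of 0.296, but it was no longer called without the library labelled WT replicate 1, at 0.31, or without UNC0642 replicate 2, at 0.14.

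Slco1a4 and Abcb1a, by contrast, were lower. Slco1a4 encodes OATP1A4, which carries organic anions and steroid conjugates across the barrier. Its level was 62.0 and 62.5 CPM in WT, 41.7 and 48.0 CPM in Tau and 39.2 and 53.8 CPM in UNC0642 libraries, with every transgenic library below both WT libraries. It was 1.39-fold lower in Tau than in WT mice (log2 fold change -0.48, standard error 0.14, adjusted p = 0.268) and 1.34-fold lower in UNC0642-treated Tau mice than in WT mice (log2 fold change -0.42, adjusted p = 0.278). The first call was lost at -0.38 without Tau replicate 1 and the second at -0.21 without UNC0642 replicate 1. Abcb1a, which encodes the drug efflux pump P-glycoprotein, had 34.5 and 33.2 CPM in WT, 28.6 and 26.0 CPM in Tau and 25.2 and 32.3 CPM in UNC0642 libraries. Its log2 fold change in Tau mice was -0.31 (standard error 0.13, adjusted p = 0.381), and the call was lost at -0.28 without the library labelled WT replicate 1, at -0.33 without WT replicate 2 and at -0.24 without Tau replicate 2. The efflux pump gene Abcg2 (log2 fold change 0.08) and Slc7a5, which encodes the large neutral amino acid transporter LAT1 (log2 fold change -0.07), gave no call in any comparison. None of the 6 transporter genes was called between UNC0642-treated and vehicle-treated Tau mice, where their log2 fold changes ran from -0.11 to 0.11 with 95% intervals between -0.39 and 0.39. The class median was 0.0033 in Tau against WT. There 2 of the 6 were called lower (33.3%, against 6.1% of all genes) and 2 were called higher (33.3%, against 3.72%).

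All 6 endothelial receptor genes had negative log2 fold changes in Tau mice, as had 10211 of all 20409 genes tested. Of the 6, 3 were called lower (50%, against 6.1% of all genes). Kdr encodes VEGF receptor 2, the main signalling receptor for VEGF-A. Its level was 13.9 and 16.6 CPM in WT, 9.65 and 8.02 CPM in Tau and 7.70 and 9.84 CPM in UNC0642 libraries, so that both transgenic groups lay well below WT and overlapped each other. Kdr was 1.72-fold lower in Tau than in WT mice (log2 fold change -0.78, standard error 0.18, adjusted p = 0.187) and 1.73-fold lower in UNC0642-treated Tau mice than in WT mice (log2 fold change -0.79, adjusted p = 0.131). Between UNC0642-treated and vehicle-treated Tau mice its log2 difference was -0.01, with an interval from -0.42 to 0.40.

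Flt1 encodes VEGF receptor 1, which binds VEGF-A tightly and signals weakly. Its level was 47.5 and 46.6 CPM in WT, 37.97 and 35.7 CPM in Tau and 38.7 and 47.5 CPM in UNC0642 libraries. It was 1.28-fold lower in Tau than in WT mice (log2 fold change -0.35, standard error 0.11, adjusted p = 0.299), a call that was lost at -0.31 without Tau replicate 2. The UNC0642 libraries spanned the range from the Tau to the WT level. Tek encodes TIE2, the angiopoietin receptor that keeps endothelium quiescent. Its level was 17.7 and 14.6 CPM in WT, 12.4 and 10.99 CPM in Tau and 12.1 and 12.5 CPM in UNC0642 libraries. It was 1.38-fold lower in Tau than in WT mice (log2 fold change -0.46, standard error 0.15, adjusted p = 0.299) and 1.31-fold lower in UNC0642-treated Tau mice than in WT mice (log2 fold change -0.39, adjusted p = 0.335). Tek was no longer called in either comparison without the library labelled WT replicate 1, at -0.32 and -0.25, nor in the first without Tau replicate 2, at -0.37, and the second call was also lost without either UNC0642 library, at -0.37 and -0.42. Tie1, the orphan partner of TIE2, Robo4, an endothelial Slit receptor family member, and Eng, the TGF-beta co-receptor endoglin, had log2 fold changes of -0.29, -0.28 and -0.01 in Tau mice, with no call. The median of the 6 receptor genes was -0.32 in Tau against WT and 0.09 in UNC0642 against Tau.

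**Figure D3:**
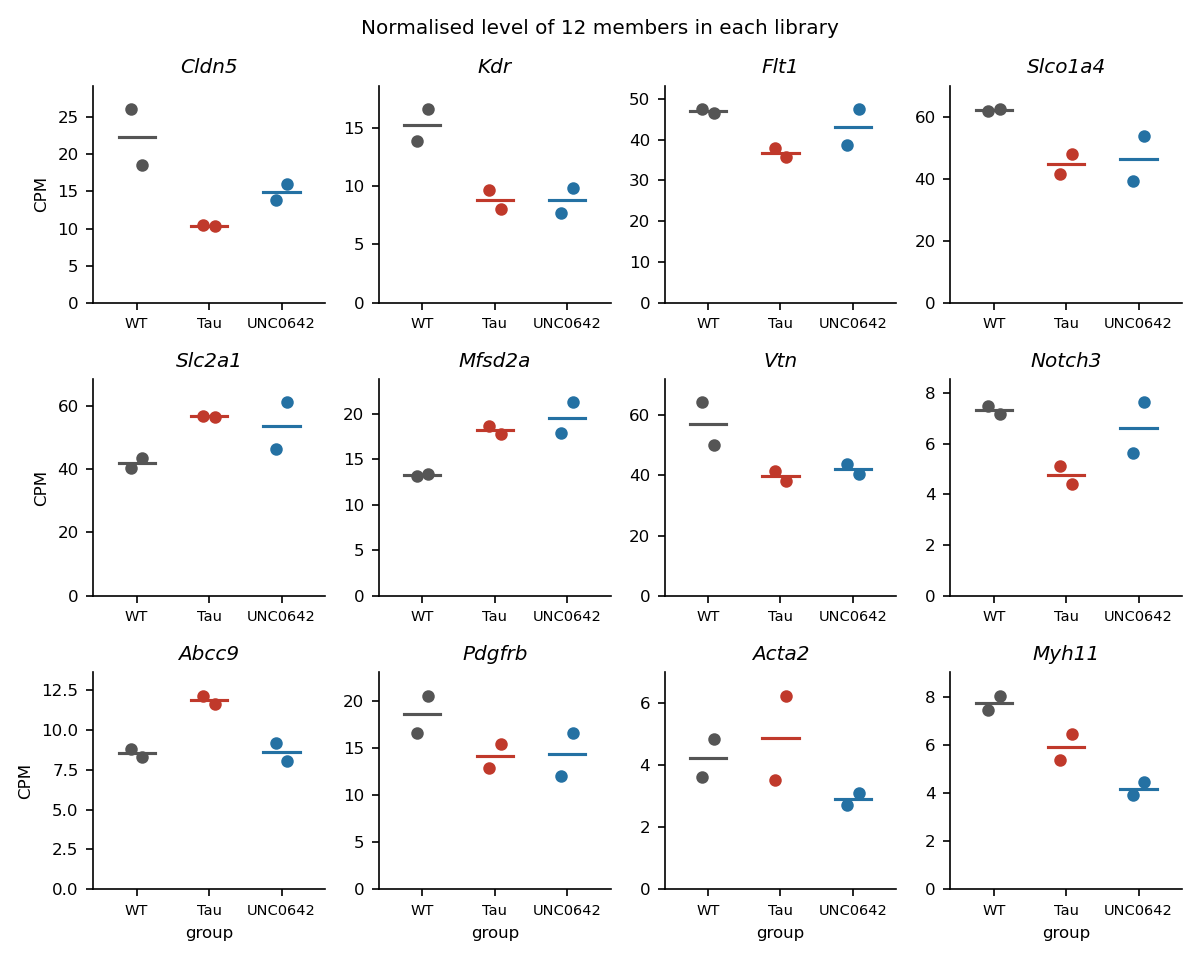
Level in CPM (vertical axis, from 0) of 12 of the genes in each library (points) of the WT, Tau and UNC0642 groups, with the mean of the 2 libraries as a bar. Tau libraries lie below both WT libraries for Cldn5, Kdr, Flt1, Slco1a4, Vtn, Notch3, Pdgfrb and Myh11 and above both for Slc2a1, Mfsd2a and Abcc9, and for Acta2 they span the WT range.

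Of the 10 other endothelial identity genes, 1 was called lower in Tau mice (10%, near the 6.1% of all genes) and none higher. Podxl encodes podocalyxin, a sialomucin on the luminal surface. It had 24.2 and 26.6 CPM in WT, 20.0 and 19.5 CPM in Tau and 19.4 and 25.4 CPM in UNC0642 libraries. Its log2 fold change in Tau mice was -0.36 (standard error 0.14, adjusted p = 0.347), and it lost the call without WT replicate 2, at -0.29, without Tau replicate 1, at -0.38, and without Tau replicate 2, at -0.34. Egfl7, an extracellular matrix protein of endothelium, had 22.0 and 22.1 CPM in WT, 18.3 and 18.95 CPM in Tau and 17.5 and 18.1 CPM in UNC0642 libraries. The 4 transgenic libraries were below both WT libraries, and Egfl7 was called lower in UNC0642-treated Tau mice against WT (log2 fold change -0.31, standard error 0.11, adjusted p = 0.316) and narrowly not in Tau mice (log2 fold change -0.25, 95% interval from -0.49 to 0.0010). Itm2a, an X-linked gene for a membrane protein rich in brain endothelium, had 30.0 and 30.8 CPM in WT, 23.5 and 32.2 CPM in Tau and 22.4 and 22.7 CPM in UNC0642 libraries. It was called lower in UNC0642-treated Tau mice against WT (log2 fold change -0.43, standard error 0.14, adjusted p = 0.281), though not without UNC0642 replicate 1, at -0.42. The call for Egfl7 was lost without WT replicate 2, at -0.30, and without either UNC0642 library, at -0.28 and -0.34.

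The remaining identity genes gave no call. Cd34, a sialomucin that other cells also make, was the most even of them, between 90.0 and 101 CPM in the 6 libraries, with a log2 fold change in Tau mice of 0.03 and an interval from -0.16 to 0.22. Emcn, the endothelial sialomucin endomucin, had a log2 fold change in Tau mice of -0.47 (interval from -0.996 to 0.05), and Vwf, the von Willebrand factor of larger vessels, one of -0.36 (interval from -0.93 to 0.22). Ly6c1, Ly6a, Sox17 and Nos3, which encode surface antigens of the Ly6 family, an arterial transcription factor and endothelial nitric oxide synthase, had log2 fold changes of -0.13, 0.79, 0.13 and -0.08. The 2 UNC0642 libraries differed widely in this class: Ly6a stood at 1.60 and 6.13 CPM, Ly6c1 at 15.1 and 27.3 CPM and Vwf at 7.16 and 13.3 CPM, each lower in replicate 1. The summed level of the 28 endothelial genes was 649 and 747 CPM in the UNC0642 libraries, a range that held the 671 and 688 CPM of the Tau libraries and the 711 and 731 CPM of the WT libraries. Ly6c1 and the neighbouring gene Ly6c2 are 97.6% identical over 822 bases of transcript, and the exons of Nos3 and Sox17 overlap genes on the other strand by 1334 and 804 bases, so that reads of these genes may be shared.

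Pericyte genes did not move as a block. Vtn encodes vitronectin, a matrix protein that brain pericytes secrete. Its level was 64.2 and 50.2 CPM in WT, 41.5 and 38.02 CPM in Tau and 43.9 and 40.5 CPM in UNC0642 libraries, and every transgenic library was below both WT libraries. Vtn was 1.44-fold lower in Tau than in WT mice (log2 fold change -0.52, standard error 0.12, adjusted p = 0.196) and 1.36-fold lower in UNC0642-treated Tau mice than in WT mice (log2 fold change -0.44, adjusted p = 0.22). Without the library labelled WT replicate 1 these values were -0.34, still called, and -0.25, no longer called. Notch3 encodes the Notch receptor of mural cells. It had 7.49 and 7.19 CPM in WT, 5.11 and 4.41 CPM in Tau and 5.62 and 7.63 CPM in UNC0642 libraries, and 488 bases of its exons overlap Gm17276 on the other strand. Notch3 was 1.53-fold lower in Tau than in WT mice (log2 fold change -0.62, standard error 0.21, adjusted p = 0.312) and 1.39-fold higher in UNC0642-treated than in vehicle-treated Tau mice (log2 fold change 0.48, standard error 0.21, adjusted p = 0.561). The latter call was lost in 10 of 14 alternative analyses, among them those without either WT library (0.48 in both), without either Tau library (0.59 and 0.38) and without UNC0642 replicate 2 (0.23). The call in Tau against WT was lost at -0.52 without Tau replicate 2.

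Pdgfrb, which encodes the receptor for PDGF-B and was listed here as a pericyte gene, had 16.7 and 20.6 CPM in WT libraries. It had 12.9 and 15.5 CPM in Tau and 12.1 and 16.7 CPM in UNC0642 libraries, and in whole tissue its RNA cannot be assigned to pericytes alone. It was 1.32-fold lower in Tau than in WT mice (log2 fold change -0.40, standard error 0.18, adjusted p = 0.402), a call that was lost at -0.24 without WT replicate 2 and at -0.27 without Tau replicate 1. Abcc9 and Kcnj8 encode SUR2 and Kir6.1, which together form the ATP-sensitive potassium channel of pericytes and smooth muscle. Abcc9 had 8.83 and 8.32 CPM in WT, 12.2 and 11.6 CPM in Tau and 9.18 and 8.07 CPM in UNC0642 libraries. Only the Tau libraries stood apart: the log2 fold change was 0.47 against WT (standard error 0.15, adjusted p = 0.301) and -0.47 for UNC0642 against Tau (standard error 0.16, adjusted p = 0.458). Both calls were lost without Tau replicate 1, at 0.44 and -0.43, and the second also without UNC0642 replicate 2, at -0.37. Kcnj8 had 3.07 and 2.27 CPM in WT, 3.15 and 2.69 CPM in Tau and 4.26 and 4.23 CPM in UNC0642 libraries. It was called higher in UNC0642-treated Tau mice against WT (log2 fold change 0.67, standard error 0.27, adjusted p = 0.362), but not without WT replicate 2, at 0.47, or without either UNC0642 library, at 0.67 in both cases. The genes of the 2 channel subunits were therefore not called in the same comparison.

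Rgs5, a regulator of G protein signalling and the pericyte gene with the highest level per kb of exon, had 123 and 128 CPM in WT, 127 and 130 CPM in Tau and 114 and 104 CPM in UNC0642 libraries. Its log2 fold change in Tau mice was 0.03 with an interval from -0.15 to 0.21. In UNC0642-treated against vehicle-treated Tau mice it was -0.23 (standard error 0.08, adjusted p = 0.461), a fold change under 1.2. Anpep, which encodes the peptidase CD13, had between 14 and 63 counts and a log2 fold change in Tau mice of -0.40 with an interval from -1.43 to 0.63. The median over the 7 pericyte genes was -0.40 in Tau mice, the value of Anpep, with Vtn, Notch3 and Pdgfrb below it and Rgs5, Kcnj8 and Abcc9 above it. It was -0.07 without WT replicate 2 and 0.02 without Tau replicate 2. The summed level of the 10 mural genes was 236 and 232 CPM in WT, 213 and 216 CPM in Tau and 197 and 191 CPM in UNC0642 libraries, a sum in which Rgs5 and Vtn are the most abundant.

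The smooth muscle genes were low in this tissue, and they were called only in comparisons with UNC0642. Myh11 encodes smooth muscle myosin heavy chain. It had 7.45 and 8.05 CPM in WT, 5.36 and 6.47 CPM in Tau and 3.91 and 4.46 CPM in UNC0642 libraries, 3 groups in descending order that did not overlap. It was 1.85-fold lower in UNC0642-treated Tau mice than in WT mice (log2 fold change -0.88, standard error 0.20, adjusted p = 0.132) and 1.403-fold lower than in vehicle-treated Tau mice (log2 fold change -0.49, standard error 0.21, adjusted p = 0.537). In Tau against WT its log2 fold change was -0.40 (interval from -0.83 to 0.04). Acta2, the smooth muscle actin gene, had 3.63 and 4.84 CPM in WT, 3.504 and 6.24 CPM in Tau and 2.72 and 3.09 CPM in UNC0642 libraries. It was called lower in UNC0642-treated than in vehicle-treated Tau mice (log2 fold change -0.72, standard error 0.32, adjusted p = 0.555), and the call was lost at -0.27 without Tau replicate 2, the library with the highest level, and at -0.64 and -0.82 without either UNC0642 library. The call for Myh11 in the same comparison was lost without these 3 libraries in turn, at -0.36, -0.40 and -0.59. With a term for sex neither Acta2, at -0.30, nor Myh11, at -0.38, was called between UNC0642-treated and vehicle-treated Tau mice. As for Cldn5, this term rests on the difference between the WT libraries alone, and the part of sex was not tested. Tagln, which encodes the actin-binding protein transgelin, had log2 fold changes of -0.80 in Tau against WT and -0.33 in UNC0642 against Tau, with intervals from -2.22 to 0.62 and from -1.94 to 1.29, and its exons overlap genes on the other strand by 1349 bases.

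**Figure D4:**
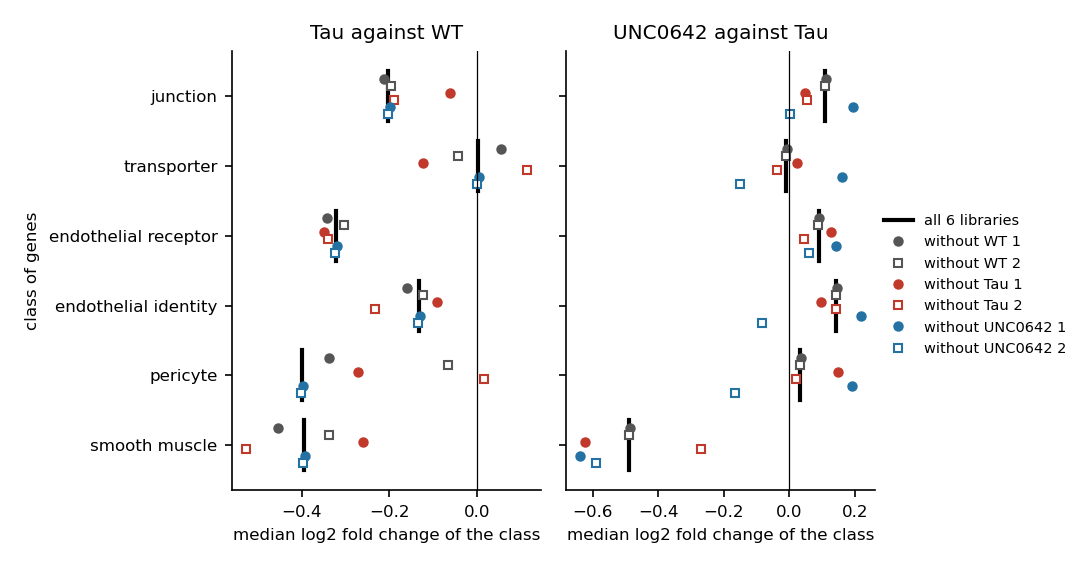
Median log2 fold change (horizontal axis) of each of the 6 classes of genes for Tau against WT (left) and UNC0642 against Tau (right), with all libraries (black bar) and with each library left out in turn (symbols). The receptor class stays below 0 on the left in every case, whereas the pericyte median moves from -0.40 to 0.02 without Tau replicate 2 and the identity median on the right moves from 0.14 to -0.08 without UNC0642 replicate 2.

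Levels per kb of exon placed Rgs5 (26.6 CPM per kb over all libraries), Vtn (22.8), Tjp1 (18.9) and Itm2a (15.5) at the top of the 38 genes and Tagln (0.175) and Anpep (0.406) at the bottom. Cldn5 had 15.8 CPM per kb in WT, 7.34 in Tau and 10.6 in UNC0642 libraries, and Slc2a1 had 11.95, 16.2 and 15.3. The order of this tight junction gene and the glucose transporter gene by mean level per kb was therefore opposite in WT and Tau mice. The WT mean of Cldn5 joins 26.1 CPM in WT replicate 1, the library with Prnp at the transgenic level, and 18.5 CPM in WT replicate 2. The order within single libraries is not given.

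Upstream sequence is shown for genes that were called in opposite directions in Tau mice, so that the regions before their starts can be read side by side. RefSeq windows (GRCm38.p6) were at hand for 26 of the 38 genes, and the 250 bases before the start are printed 5′ to 3′ on the gene's strand, for Cldn5 (chr16:18776597-18776846, plus), Flt1 (chr5:147726012-147726261, minus), Slco1a4 (chr6:141856221-141856470, minus), Slc2a1 (chr4:119108495-119108744, plus) and Mfsd2a (chr4:122961189-122961438, minus). Capitals mark AGGAAG or CGGAAG on either strand, the core letters bound by ETS factors such as the endothelial regulators ERG and FLI1, in Flt1 and Slco1a4, and ACGTG on either strand, the core of the hypoxia response element, in Slc2a1 and Mfsd2a.
Cldn5: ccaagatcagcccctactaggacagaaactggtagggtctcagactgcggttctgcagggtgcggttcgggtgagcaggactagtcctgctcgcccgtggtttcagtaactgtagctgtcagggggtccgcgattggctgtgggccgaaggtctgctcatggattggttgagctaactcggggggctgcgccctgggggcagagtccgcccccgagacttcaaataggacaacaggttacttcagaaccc
Flt1: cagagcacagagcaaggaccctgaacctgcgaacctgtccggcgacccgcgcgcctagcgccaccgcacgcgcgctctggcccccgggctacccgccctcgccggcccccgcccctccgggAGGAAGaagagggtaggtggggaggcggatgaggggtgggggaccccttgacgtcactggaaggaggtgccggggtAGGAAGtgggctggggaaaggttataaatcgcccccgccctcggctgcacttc
Slco1a4: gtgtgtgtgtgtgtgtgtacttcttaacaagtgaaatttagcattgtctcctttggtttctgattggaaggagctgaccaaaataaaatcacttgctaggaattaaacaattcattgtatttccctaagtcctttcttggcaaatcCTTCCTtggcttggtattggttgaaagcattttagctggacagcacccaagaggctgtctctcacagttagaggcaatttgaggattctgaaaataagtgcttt
Slc2a1: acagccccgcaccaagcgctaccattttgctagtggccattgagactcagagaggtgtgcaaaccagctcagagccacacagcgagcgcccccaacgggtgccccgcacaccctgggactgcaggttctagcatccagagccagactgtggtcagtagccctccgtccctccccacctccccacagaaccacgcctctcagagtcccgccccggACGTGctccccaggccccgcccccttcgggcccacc
Mfsd2a: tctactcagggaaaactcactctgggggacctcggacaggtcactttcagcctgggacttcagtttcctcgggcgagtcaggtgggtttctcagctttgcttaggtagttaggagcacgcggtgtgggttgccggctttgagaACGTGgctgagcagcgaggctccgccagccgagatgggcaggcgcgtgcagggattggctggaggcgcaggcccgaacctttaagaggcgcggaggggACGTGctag
The ETS letters were found in 12 of the 19 endothelial genes with a window (63.2%) and in 0 of the 7 mural genes, against 39.2% of 32851 RefSeq windows of the same length. ACGTG was found in 3 of the 26 genes, Slc2a1, Mfsd2a and Notch3, against 16.6% of all windows. In the Cldn5 window neither set of letters occurred. The printed windows do not stand for all called genes. Kdr, Tek, Vtn and Notch3, also called lower in Tau mice, had no ETS letters, whereas Abcb1a had them. Tjp1, Eng and Cd34, which were not called, had ETS letters as well. Abcc9, called higher, had no ACGTG, and Notch3, called lower, had it. Each gene is represented by the first of its RefSeq windows, whereas the shares of all windows count every window. The windows of Abcb1a, Tjp1 and Anpep do not lie at the gene starts of the GENCODE annotation. That of Abcb1a, from 8566841 to 8567090 on chromosome 5, ends before the annotated start at 8660077. The motifs were chosen after the values had been seen, and a match is not a binding site.

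The other genes of these pathways, 121 of 130 listed and tested, gave 22 called lower and 5 called higher in Tau mice (18.2% and 4.13%, against the 6.1% and 3.72% of all genes given above). For UNC0642 against Tau 11 were called lower and 6 higher (9.09% and 4.96%, against 3.95% and 3.73% of all genes). For UNC0642-treated Tau mice against WT 23 were called lower and 2 higher (19.0% and 1.65%, against 5.69% and 3.77%). None had an adjusted p under 0.05. In Tau mice the smallest p-values in the downward direction belonged to Jag1, a Notch ligand (6.33 and 6.64 CPM in Tau against 10.2 and 12.6 CPM in WT libraries, log2 fold change -0.81, adjusted p = 0.153), and Clec14a, an endothelial lectin (log2 fold change -0.92, adjusted p = 0.216). In the upward direction they belonged to Pdgfb, the ligand of the PDGF receptor (23.1 and 23.9 CPM against 15.9 and 16.0 CPM, log2 fold change 0.56, adjusted p = 0.117), and Nrp1, a co-receptor of KDR (log2 fold change 0.49, adjusted p = 0.123). Thus the ligand Pdgfb was called higher where its receptor gene Pdgfrb was called lower, and the ligand Jag1 and the receptor Notch3 were both called lower. Vegfa, the ligand of KDR and FLT1, had 41.3 CPM in both WT libraries and 37.5 and 43.4 CPM in the Tau libraries, with a log2 fold change of -0.03. It was picked out after its values had been seen.

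In UNC0642-treated against vehicle-treated Tau mice the smallest p-values of this list were those of Gkn3, an arterial endothelial gene (0.829 and 0.750 CPM against 2.22 and 2.58 CPM, log2 fold change -1.59, adjusted p = 0.327), and Mylk, the myosin light chain kinase of smooth muscle (log2 fold change -0.64, adjusted p = 0.395), among lower genes. Among higher genes they were those of Cd93, an endothelial lectin receptor (log2 fold change 0.65, adjusted p = 0.444), and Slc16a1, the monocarboxylate transporter MCT1 (log2 fold change 0.35, adjusted p = 0.454). Mylk, Cd93 and Slc16a1 are also in the study's lists of reversed genes, made from these libraries, so their values are not independent evidence.

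Markers of other cells that lie on or in vessels also differed between the groups. Fibroblast markers, which stand for the meninges and the sheath of large vessels, summed to 80.9 and 112 CPM in WT, 76.8 and 56.0 CPM in Tau and 78.5 and 74.2 CPM in UNC0642 libraries. Of these, 6 of 12 were called lower in Tau mice (50%, against 6.1% of all genes). Blood markers summed to 60.7 and 63.4 CPM in WT, 39.7 and 39.0 CPM in Tau and 41.3 and 66.2 CPM in UNC0642 libraries, and 2 of 5 were called lower in Tau mice (40%, against 6.1%). Hbb-bs, the most abundant of them, stood at 37.8 and 40.2 CPM in WT, 25.1 and 23.2 CPM in Tau and 27.1 and 39.9 CPM in UNC0642 libraries. Of the fibroblast and blood markers none was at 0 in any library, and in UNC0642 replicate 2 the blood and the endothelial sums were both higher than in replicate 1. The part of blood and meninges in the results for vascular genes was not tested.

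**Figure D5:**
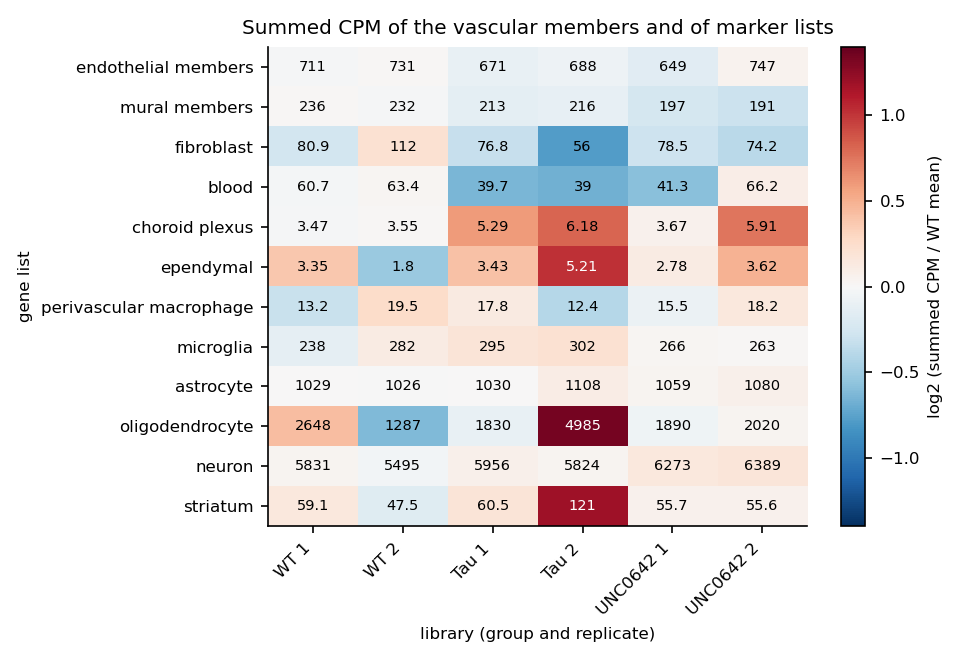
Summed CPM (numbers) of the 28 endothelial genes, the 10 mural genes and 10 lists of markers of other cells (rows) in the 6 libraries (columns), coloured by the log2 ratio to the mean of the 2 WT libraries. Tau replicate 2 holds the highest sums of oligodendrocyte (4985 CPM) and striatum (121 CPM) markers and the lowest sum of fibroblast markers (56.0 CPM).

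Oligodendrocyte markers summed to 4985 CPM in Tau replicate 2 and to 1287 to 2648 CPM elsewhere, and striatal markers to 121 CPM there and 47.5 to 60.5 CPM elsewhere. All 5 striatal markers were called higher in Tau mice, against 3.72% of all genes. None of them was called in UNC0642-treated Tau mice against WT. Astrocyte markers summed to 1026 to 1108 CPM, neuron markers to 5495 to 6389 CPM, microglia markers to 238 to 302 CPM and perivascular macrophage markers to 12.4 to 19.5 CPM. In Tau against WT 2 of 5 oligodendrocyte (40%), 1 of 5 astrocyte (20%) and 1 of 5 microglia markers (20%) were called higher, against 3.72% of all genes. No neuron or perivascular macrophage marker was called in that comparison. In UNC0642 against Tau 4 of 5 striatal markers were called lower (80%, median log2 fold change -0.87), as were 2 of 5 oligodendrocyte markers (40%, median -0.90). The share of all genes was 3.95%, and the members Abcc9, Acta2 and Myh11 were also called lower. Called higher were 2 of 5 blood markers (40%, median 0.17), against 3.73% of all genes, beside Cldn5 and Notch3. In the same comparison 1 microglia marker was called lower, 1 fibroblast marker higher and 1 neuron marker in each direction, and no astrocyte or perivascular macrophage marker was called. Choroid plexus and ependymal lists were near the floor, at 3.47 to 6.18 and 1.80 to 5.21 CPM in sum and with no call, with up to 4 of 8 and 2 of 5 genes at 0, and the choroid plexus marker Ttr at 0 in 4 libraries. Among all these markers the smallest p-values in Tau against WT were those of Hbb-bs (log2 fold change -0.69, adjusted p = 0.187) and the fibroblast gene Crabp2 (-1.89, adjusted p = 0.273) downward and of the striatal receptor gene Drd1 (0.75, adjusted p = 0.244) and the astrocyte gene Aldh1l1 (0.26, adjusted p = 0.299) upward. In UNC0642 against Tau they were those of the neuron gene Tbr1 (-0.40, adjusted p = 0.421) and the striatal gene Adora2a (-2.01, adjusted p = 0.429) downward and of the neuron gene Syt1 (0.55, adjusted p = 0.33) and Hbb-bs (0.47, adjusted p = 0.461) upward. Crabp2, Drd1 and Adora2a are also in the study's lists of reversed genes, as are other striatal and oligodendrocyte markers. The part of these cells in the results was not tested. The share of all genes called is not given for the following counts with a library left out. Without Tau replicate 2, 7 members were called lower and 3 higher in Tau mice, among them 5 of the 10 and all 3 of the earlier calls. The 5 calls lost without that library were those given above for Abcb1a, Flt1, Tek, Podxl and Notch3.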

How the data were processed

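RNA from whole PFC tissue was sequenced as stranded, ribosome-depleted total RNA on an Illumina HiSeq. Per the study's methods and the submitters' processing notes, the authors trimmed reads with Cutadapt, aligned them with TopHat2, handled alignments with SAMtools and counted reads per gene with featureCounts. mm10 is named in the notes, the methods name mouse RefSeq mRNAs as the target, and the strand setting of counting is not given in the sources used here. The deposited files hold raw counts of 54429 genes in each of 6 libraries. The names of 26 genes had been turned into dates in 2 files and were matched by row position. Groups and replicate numbers came from the sample titles. Labels do not say that libraries came from separate cages or days, so that p-values cover the spread between these libraries only. Same-numbered libraries are different mice.

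Genes with enough counts by filterByExpr (edgeR 4.0.16, minimum count 10, minimum total 15) were tested, 20409 in all. Counts were scaled by TMM, and 1 quasi-likelihood fit over the 6 libraries estimated the group means (3 residual degrees of freedom, common biological coefficient of variation 12.3%) in R 4.3.3. Benjamini-Hochberg adjustment covered the 20409 genes. Standard errors were derived from the fold change and the F statistic. Alternatives were other scaling (library size alone, DESeq2 1.42.0 size factors), other filters, the replicate number as a block, a term for sex-linked expression, only the 2 groups compared, the Wald test of DESeq2, other thresholds and each library left out in turn. The scripts were tested on simulated data. Positions and exon lengths came from GENCODE M21 and upstream sequence from RefSeq, both on GRCm38. Transcripts with at least 95% identity over at least 200 bases were found with blastn.

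The 38 genes and all lists were chosen with earlier results of these data known. All 38 could be named, and of the other pathway genes and cell markers those with an adjusted p under 0.05, or otherwise the 2 with the smallest p in each direction, and the most abundant gene of each cell list.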

Additional observations from a re-analysis of the deposited data

How the results depend on the processing

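Of 29 calls of single genes, none reversed its direction under any of 14 alternatives, and the calls in Tau against WT for Cldn5, Kdr, Mfsd2a, Slc2a1 and Vtn and those in UNC0642 against WT for Kdr, Mfsd2a and Myh11 were kept under all 14. With 2 libraries a group, 1 library decided many of the other calls. The term for sex is informed by the WT libraries only. In Tau against WT it gave nearly the values found without WT replicate 1 (Kdr -0.901 and -0.905). In UNC0642 against WT it gave nearly those found without WT replicate 2 (Kdr -0.654 and -0.655). In these 2 comparisons it is therefore not an alternative independent of leaving out a library, and the 14 count such a fit again. The causes of the changes below were not tested. Counts of members under other settings, here and above, come without the share of all genes called, except at the adjusted p, whose shares are given above. These counts are therefore not compared with those of other genes.

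At an adjusted p under 0.05, members called lower and higher numbered 1 and 0 in Tau against WT, 0 and 0 in UNC0642 against Tau and 0 and 0 in UNC0642 against WT. With a fold limit of 1.5 they numbered 3 and 0, 1 and 0, and 2 and 1. In UNC0642 against Tau the members called lower numbered 1 with library size alone, 1 with only the 2 groups compared, 1 in DESeq2, 5 with no filter on counts and 0 with the term for sex, and those called higher numbered 1 each with at least 10 counts in every library, with only the 2 groups compared and in DESeq2. With the term for sex they also numbered 1, which was neither Cldn5 nor Notch3. With the replicate block the members called higher in UNC0642 against Tau numbered 1 and those called lower in Tau against WT numbered 9. Deviations of same-numbered libraries correlated at -0.03, -0.02 and -0.0033 over all genes tested. Whether same-numbered libraries shared a day or batch was not tested. The block moved no other count by over 1.5 times.

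With each library left out in turn, members called lower numbered 7 to 10 in Tau against WT, 1 to 3 in UNC0642 against Tau and 4 to 13 in UNC0642 against WT, and members called higher numbered 2 to 4, 0 to 6 and 1 to 4. The 6 arose without UNC0642 replicate 1 and the 0 without UNC0642 replicate 2, as did the 4 and the 13 of the lower genes against WT. Class medians of the log2 fold change in Tau against WT ranged from -0.21 to -0.062 for junction, -0.12 to 0.11 for transporter, -0.35 to -0.30 for receptor, -0.23 to -0.09 for identity, -0.40 to 0.016 for pericyte and -0.53 to -0.26 for smooth muscle genes. In UNC0642 against Tau they ranged between 0.0038 and 0.20, between -0.15 and 0.16, between 0.04 and 0.14, between -0.082 and 0.22, between -0.17 and 0.19 and between -0.64 and -0.27 in the same order. The receptor median in UNC0642 against Tau was 0.20 with the term for sex, and the smooth muscle median in Tau against WT was -0.13 with at least 10 counts in every library, which drops Tagln.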
